A study of Homo sapiens with 18 samples.

Results

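The BTG and TOB antiproliferative family was followed in U87MG glioblastoma cells, a human glioma line, with and without Erastin. The 7 genes described are BTG1, BTG2, BTG3, TOB1 and TOB2 together with CNOT7 and CNOT8, the deadenylases that these proteins bind, out of 58302 genes in the count table. The family was selected with results of this same comparison in view, in particular the fold change of BTG2, so the members' levels and fold changes are given as a description and carry no test. RNA-seq gave 4 libraries, of which 2 came from control cells and 2 from cells given Erastin at 10 μM for 72 h. Ferroptosis is a death of cells by iron-dependent lipid peroxidation, and Erastin is a compound used to trigger it by blocking cystine uptake through system Xc-. The labels describe the control cells as U87 under normal growth, title them WT and name no vehicle, and a DMSO control is named in the methods for the Western blot but not for the sequencing. All libraries came from 1 established line, and the design calls the 2 libraries of each group biological replicates without saying whether they were separate cultures.

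BTG and TOB proteins slow cell proliferation. They share a conserved amino-terminal domain through which BTG1, BTG2, TOB1 and TOB2 bind the CAF1 deadenylase, encoded by CNOT7 or its paralog CNOT8, and so bring the CCR4-NOT complex to mRNAs, whose poly(A) tails it shortens. TOB1 and TOB2 also contact the cytoplasmic poly(A)-binding protein, and BTG2 is a well known transcriptional target of p53 and of growth factor and stress signalling.

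The promoters of the closest pair, BTG2 and BTG1, are shown because these paralogs had the largest and the next largest log2 fold changes of the family. Each sequence is the 250 bases upstream of the RefSeq transcription start (GRCh38.p14), written 5′ to 3′ on the gene's own strand, at chr1:203305269-203305518 on the plus strand for BTG2 and chr12:92145847-92146096 on the minus strand for BTG1. In the annotation of the count table, both genes begin inside these windows, from an earlier start. Capitals mark CRE half-sites (TGACG, or CGTCA on the other strand), CCAAT boxes (CCAAT or ATTGG) and a TATA box (TATAAA).
BTG2: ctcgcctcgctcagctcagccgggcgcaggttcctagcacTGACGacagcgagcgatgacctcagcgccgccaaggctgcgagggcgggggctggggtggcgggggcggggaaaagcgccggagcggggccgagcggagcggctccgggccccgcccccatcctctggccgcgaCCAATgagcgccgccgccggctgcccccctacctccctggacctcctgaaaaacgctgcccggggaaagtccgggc
BTG1: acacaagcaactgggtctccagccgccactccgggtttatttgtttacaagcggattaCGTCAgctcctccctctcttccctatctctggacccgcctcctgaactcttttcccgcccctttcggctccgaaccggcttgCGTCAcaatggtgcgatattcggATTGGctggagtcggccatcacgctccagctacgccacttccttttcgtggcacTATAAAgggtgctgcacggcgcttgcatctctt

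The BTG2 promoter had 74.8% G and C, with a CRE half-site beginning 210 bases and a CCAAT box 76 bases before the start. The BTG1 promoter had 56.4% G and C, with CRE half-sites at 192 and 110 bases, a CCAAT box at 87 bases and a TATA box at 33 bases before the start. Letters were searched on both strands in the promoters of 6 of the 7 members, and CNOT7 had no entry in the promoter table. The TATA box was present in BTG1 alone among the members and in 10.7% of 35116 promoters. CCAAT was present in BTG1, BTG2 and TOB1 and in 32.0% of all promoters. The CRE half-site was present in the same 3 members and in 21.2% of all promoters. The GC box GGGCGG was present in 6 of 6 members and in 42.6% of all promoters. The exact consensus of the p53 half-site was in 0 of 6 members and 5.57% of promoters, the E-box CACGTG in 0 and 6.34%, the AP-1 site TGANTCA in 0 and 6.57%, and the C/EBP-ATF element TGATGNAAT in 0 and 0.888%. The antioxidant response element core TGACNNNGC, which can overlap a CRE half-site, was found in CNOT8 and in 10.9% of promoters. These are matches of letters in 1 window and do not show binding or its absence.

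Library totals lay between 29412656 and 31513519 counts, and 16751 genes passed the filter on low counts, all 7 members among them. The lowest count of a member in any library was 78, so no member passed the filter through 1 group alone. Levels are given as CPM, counts scaled to the TMM-normalized size of each library. The labelled line expressed VIM, CD44 and EGFR (at least 194 CPM in every library), whereas the glial markers SOX2, S100B and ALDH1L1 were under 1 CPM in every library. The 10 markers of the line summed to 4376 and 4340 CPM in control and 2915 and 3120 CPM in Erastin libraries. Among them, VIM was at 2547 and 2482 CPM in control and 1609 and 1720 CPM in Erastin libraries. CD44 was at 1404 and 1406 CPM in control and 1055 and 1134 CPM in Erastin libraries. NES was at 41.8 and 31.3 CPM in control and 3.51 and 2.45 CPM in Erastin libraries. CHI3L1 was at 184.4 and 219.96 CPM in control and 42.3 and 42.1 CPM in Erastin libraries. OLIG2 had 88 and 79 counts in control and 67 and 59 in Erastin libraries. EGFR went the other way, from 194.2 and 196.5 CPM in control to 199.6 and 216.1 CPM in Erastin libraries. GFAP was also higher, with 46 and 41 counts in control and 69 and 81 in Erastin libraries. The 3 immune and 3 epithelial markers were also under 1 CPM in every library, CD3E and CDH1 at 0. The summed neuronal markers were 52.6 and 57.4 CPM in control and 12.9 and 12.9 CPM in Erastin libraries, mostly SNAP25 and SYT1. The summed endothelial markers were 4.64 and 6.18 CPM in control and 1.64 and 2.07 CPM in Erastin libraries. Of these, PECAM1 was at 4.51 and 6.05 CPM in control and 1.04 and 1.05 CPM in Erastin libraries. VWF went the other way, from 0.13 and 0.13 CPM in control to 0.57 and 1.02 CPM in Erastin libraries. Their part in the members' differences was not tested. In such bulk samples, a change in the share of some cells and a change in RNA per cell cannot be told apart.

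BTG2, a p53-responsive member, was the lowest of the family in control cells and many times higher after Erastin. BTG2 (ENSG00000159388) lies on chromosome 1 from 203305491 to 203309602 on the plus strand (GRCh38) and has 2 exons. The control libraries held 78 and 78 counts of BTG2, and the Erastin libraries held 1023 and 1175. These were 2.55 and 2.51 CPM in control and 34.2 and 37.4 CPM in Erastin libraries. The Erastin libraries lay far above both control libraries, and the replicates of each group lay close together. Group means were 2.53 ± 0.0283 CPM in control and 35.8 ± 2.26 CPM in Erastin cells (SD, n = 2 each). This was a 14.1-fold difference, or a log2 fold change of 3.82 (SE 0.14), which ranked 76 from the highest of the 16751 genes tested. Per kilobase of exon, the BTG2 level went from the 27.2 to the 78.3 percentile of the genes tested.

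**Figure D1:**
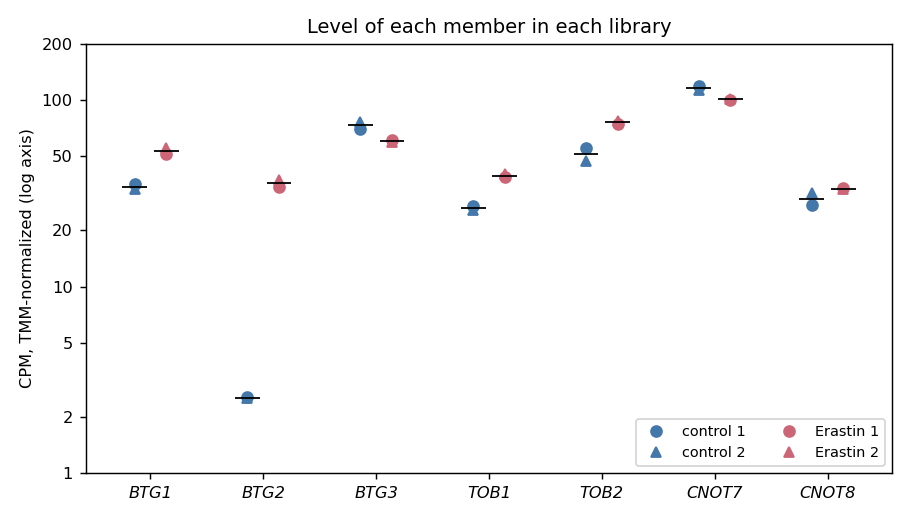
Level of each of the 7 members in each library, in TMM-normalized CPM on a log axis. Circles and triangles are replicates 1 and 2, blue for control and red for Erastin, and black bars are group means (n = 2). BTG2 moves from about 2.53 to 35.8 CPM, while the other 6 members stay between 25.7 and 118.9 CPM in every library.

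BTG1, the paralog closest to BTG2 and also a partner of CAF1, was moderately higher after Erastin. BTG1 (ENSG00000133639) lies on chromosome 12 from 92140278 to 92145897 on the minus strand, and its main transcript has 2 exons. Its counts were 1081 and 1036 in control and 1529 and 1732 in Erastin libraries. The corresponding levels were 35.4 and 33.4 CPM in control and 51.1 and 55.1 CPM in Erastin cells. Both Erastin libraries were above both control libraries, and the gap exceeded the difference within either group. The mean went from 34.4 ± 1.42 to 53.1 ± 2.83 CPM (SD, n = 2 each), and the log2 fold change was 0.63 (SE 0.091), or 1.55-fold.

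BTG3, a more distant member whose main transcript has 5 exons, went the other way. BTG3 (ENSG00000154640) lies on chromosome 21 from 17593653 to 17612947 on the minus strand. Counts of BTG3 were 2142 and 2364 in control and 1830 and 1865 in Erastin libraries. The levels were 70.1 and 76.1 CPM in control and 61.2 and 59.4 CPM in Erastin libraries. Both Erastin libraries were below both control libraries, and the gap between the groups was wider than the difference within either. The log2 fold change was -0.28 (SE 0.078), so that the mean after Erastin was 0.825 times that of control. BTG4, a germline member of the family, had 5 counts in Erastin replicate 2 and 0 in the other 3 libraries, did not pass the filter and was given no fold change.

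TOB1 and TOB2, which carry a longer carboxy-terminal tail that contacts the poly(A)-binding protein, were both higher after Erastin and by nearly the same factor. TOB1 (ENSG00000141232) lies on chromosome 17 from 50862223 to 50867978 on the minus strand. TOB1 had 827 and 798 counts in control and 1156 and 1260 in Erastin libraries, or 27.05 and 25.7 CPM against 38.6 and 40.1 CPM. The TOB1 groups did not overlap, and the log2 fold change was 0.58 (SE 0.098). TOB2 (ENSG00000183864) lies on chromosome 22 from 41433492 to 41447023 on the minus strand. TOB2 had 1682 and 1470 counts in control and 2217 and 2438 in Erastin libraries, or 55.0 and 47.3 CPM against 74.1 and 77.6 CPM. The control libraries of TOB2 were the more spread out of its groups, yet both were below both Erastin libraries. Its log2 fold change was 0.57 (SE 0.088), with 0.68 when control replicate 1 was left out and 0.46 when control replicate 2 was left out.

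The deadenylase partners were nearly level, and the paralogs had opposite signs. CNOT7 (ENSG00000198791), the more abundant catalytic subunit by CPM, lies on chromosome 8 from 17224964 to 17246878 on the minus strand. CNOT7 had 3636 and 3530 counts in control and 3006 and 3179 in Erastin libraries, or 118.9 and 113.6 CPM against 100.5 and 101.2 CPM. Both Erastin libraries were lower, with a log2 fold change of -0.21 (SE 0.068). CNOT8 (ENSG00000155508), its paralog, lies on chromosome 5 from 154857553 to 154876793 on the plus strand. CNOT8 had 839 and 987 counts in control and 1008 and 1047 in Erastin libraries, or 27.4 and 31.8 CPM against 33.7 and 33.3 CPM. The higher control library was close to both Erastin libraries, and the log2 fold change of 0.18 (SE 0.11) ranged from 0.07 to 0.28 when 1 library was left out. Per kilobase of exon the 2 genes were nearer each other than by CPM. CNOT7 had a mean of 10.6 CPM per kilobase in control and 9.21 in Erastin libraries, and CNOT8 had 7.53 and 8.53. Added together, they were at 18.2 ± 0.439 CPM per kilobase in control and 17.7 ± 0.0242 in Erastin libraries (SD, n = 2 each).

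The study's methods call a gene by an adjusted p under 0.05 and a log2 fold change beyond 1 or -1, and by these thresholds BTG2 was called upregulated and no other member was called. Thus 1 of 7 members was called higher, where 6.24% of all genes tested were, and 0 of 7 lower, where 9.34% were. With DESeq2, or at an unadjusted p with the same fold threshold, the counts were also 1 and 0. On the adjusted p alone, 4 members were higher (BTG1, BTG2, TOB1 and TOB2), beside 23.2% of all genes, and 2 were lower (BTG3 and CNOT7), beside 23.7%. BTG3 was no longer among the lower members without Erastin replicate 2 (log2 fold change -0.26). CNOT7 was no longer among them without control replicate 1 (-0.18), without Erastin replicate 1 (-0.20), without Erastin replicate 2 (-0.21), with DESeq2 (-0.20) and with library totals as the only scaling (-0.16). The Erastin libraries were both above the control libraries in 5 members, beside 36.7% of all genes, and both below in 2, beside 36.9%. Because the members were selected on this comparison, nothing is read from these counts.

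**Figure D2:**
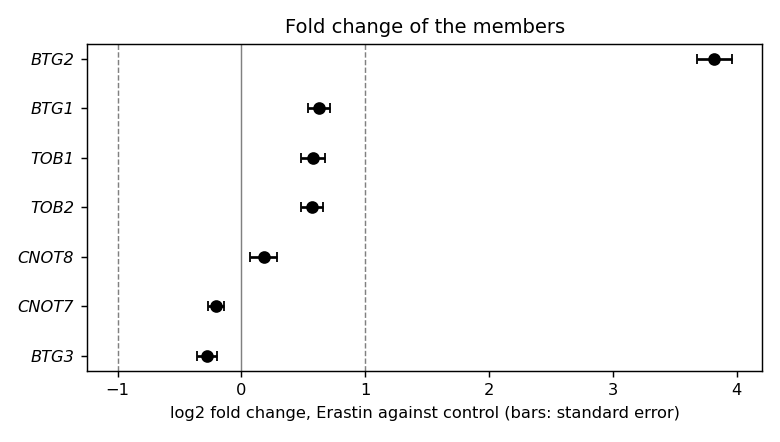
Log2 fold change of each member, Erastin against control, with its standard error as a bar. Dashed lines mark the fold threshold of 1 in either direction. BTG2 at 3.82 lies beyond it, 3 members lie between 0.57 and 0.63, and BTG3, CNOT7 and CNOT8 lie between -0.28 and 0.18.

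Levels of different genes were compared per kilobase of exon. Within the summed level of the 5 BTG and TOB genes, BTG3 held most in control cells and BTG2 least. BTG3 took 49.5% and 53.8% of the sum in control and 32.7% and 30.8% in Erastin libraries. BTG2 took 1.51% and 1.48% in control and 15.3% and 16.2% in Erastin libraries. The BTG1 share was 11.9% and 11.2% in control and 13.0% and 13.6% in Erastin libraries. After Erastin, BTG2 was thus above BTG1 per length, with stretches shared with other genes included in the length. Without division by length, BTG2 was below BTG1, with mean shares of 13.5% for BTG2 and 20.1% for BTG1. TOB1 took 17.5% and 16.6% in control and 18.9% and 19.0% in Erastin libraries. TOB2 took 19.6% and 16.9% in control and 20.04% and 20.3% in Erastin libraries. The groups did not overlap for any of the 5 shares, though for TOB2 the nearest libraries were almost level.

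The order of the mean levels in control cells was BTG3 (31.7 ± 1.85 CPM per kilobase), TOB2 (11.2 ± 1.19), TOB1 (10.5 ± 0.381), BTG1 (7.08 ± 0.292) and BTG2 (0.918 ± 0.0103), each as SD with n = 2. TOB2 and TOB1 overlapped in control libraries, and every other pair of neighbours was separate. In Erastin cells, the order was BTG3 (26.1 ± 0.56), TOB2 (16.6 ± 0.538), TOB1 (15.6 ± 0.408), BTG2 (13.0 ± 0.819) and BTG1 (10.9 ± 0.583), and no neighbours overlapped. The length used includes stretches shared with other genes, in which reads were not counted. These were 281 of 2521 bases in TOB1, 503 and 325 of 4854 in BTG1 and 280 of 2306 in BTG3. No such stretch was found in TOB2 or BTG2. The order of TOB1 and TOB2, and that of BTG1 and BTG2 after Erastin, is therefore not settled. The summed level of the 5 genes went from 61.4 ± 0.0199 to 82.3 ± 1.79 CPM per kilobase (SD, n = 2 each), or 1.34 times the control level. Without BTG2 the sum went from 60.4 ± 0.00965 to 69.3 ± 0.969, or 1.15 times.

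**Figure D3:**
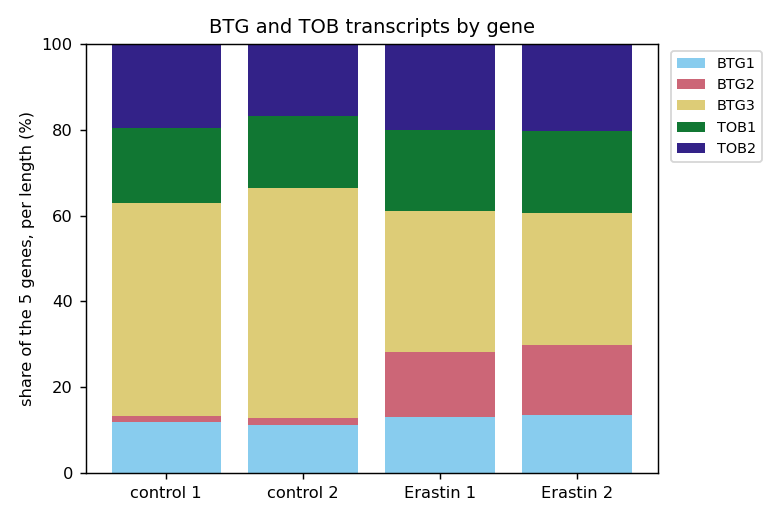
Share of each gene in the summed CPM per kilobase of BTG1, BTG2, BTG3, TOB1 and TOB2, as stacked bars for each library in percent. The BTG2 segment widens from 1.51% and 1.48% in control to 15.3% and 16.2% in Erastin libraries, and the BTG3 segment narrows.

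The 5 genes whose pattern over the 4 libraries lay nearest to that of BTG2 were found by the Euclidean distance between log2 CPM values centred on each gene's own mean, among 9507 genes whose mean reached 10 CPM. These were H2AC6 (distance 0.122), a replication-type histone, DKK1 (0.139), a secreted inhibitor of Wnt signalling, SLC7A11 (0.205), the transporter subunit of system Xc- that Erastin targets, HRNR (0.372), an epidermal protein, and MORC1 (0.383), a germline chromatin protein. SLC7A11 was at 16.5 and 17.7 CPM in control and at 218.5 and 215.9 CPM in Erastin libraries. H2AC6 was at 5.40 and 5.54 CPM in control and at 67.1 and 79.0 CPM in Erastin libraries. With 4 libraries in 2 groups, the distance mainly reflects the size of the treatment difference.

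**Figure D4:**
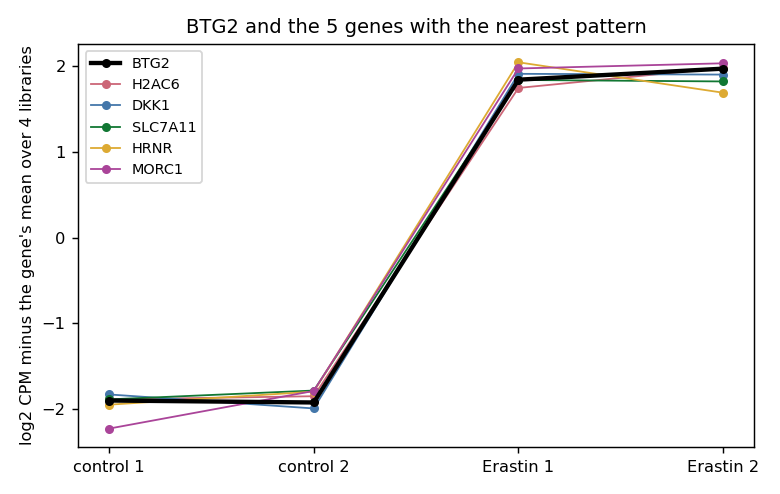
Log2 CPM of BTG2 (thick black line) and the 5 nearest genes in each library, minus each gene's mean over the 4 libraries. All 6 lines are low in both control libraries and high in both Erastin libraries, and the distances to BTG2 run from 0.122 for H2AC6 to 0.383 for MORC1.

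No other listed enzyme or scaffold subunit of poly(A) shortening was called. Beside CNOT7 and CNOT8, 18 genes were listed, deadenylases together with scaffold and other associated proteins. Of these, 0 were called in either direction by edgeR, 0 by DESeq2 and 0 at an unadjusted p with the same fold threshold. By edgeR, 6.24% of all genes were called higher and 9.34% lower, so nothing is read from 0 calls among 18 genes. Their median log2 fold change was 0.09, beside -0.0026 for all genes tested. On the adjusted p alone, NOCT, a listed gene with a circadian rhythm, was higher (log2 fold change 0.92, SE 0.20, edgeR adjusted p = 0.0023) and so was PDE12 (0.36). PAN2, the catalytic subunit of PAN2-PAN3, was lower (-0.49, SE 0.11, edgeR adjusted p = 0.0031), and CNOT3 was lower (-0.46, SE 0.17, edgeR adjusted p = 0.040). The other subunits of CCR4-NOT did not pass. The scaffold CNOT1, which holds CNOT7 or CNOT8, was at 0.03, and CNOT2, CNOT9, CNOT10 and CNOT11 lay between -0.11 and 0.17. The second catalytic subunits CNOT6 and CNOT6L were at 0.14 and 0.10, the ubiquitin ligase CNOT4 at 0.24 and TNKS1BP1 at -0.11.

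Of 10 genes for poly(A)-binding proteins and their regulators, 8 were tested and 0 were called by edgeR, by DESeq2 or at an unadjusted p with the same fold threshold. With 8 genes, this is near the edgeR shares of all genes, 6.24% higher and 9.34% lower. The list median was -0.16. PABPC1, the main cytoplasmic poly(A)-binding protein that TOB proteins contact, was lower on the adjusted p alone, from 1377 and 1346 CPM in control to 1051 and 1034 CPM in Erastin libraries (log2 fold change -0.39, SE 0.061, edgeR adjusted p = 2.7e-04). PABPC1L was lower as well (-0.83), whereas the nuclear PABPN1 (0.77) and PAIP1 (0.20) were higher.

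Among 21 mRNA-binding proteins that bring transcripts to CCR4-NOT, 20 were tested, 2 were upregulated, beside 6.24% of all genes, and 2 downregulated, beside 9.34%, with a median of 0.24. These shares are near the background, and at an unadjusted p with the same fold threshold the counts were 3 and 2. CPEB1, a regulator of cytoplasmic polyadenylation, rose with a log2 fold change of 1.57 (SE 0.22, edgeR adjusted p = 1.2e-04). NANOS3, known from germ cells, had 19 and 19 counts in control and 65 and 40 in Erastin libraries (1.48, SE 0.46, edgeR adjusted p = 0.020). NANOS3 was not called with DESeq2 or without Erastin replicate 1, where 1 recruiter remained upregulated. RC3H1 was also called without control replicate 1, which gives 3. ZFP36L1, which binds AU-rich elements, fell from 679.1 and 648.0 CPM in control to 254.6 and 284.3 CPM in Erastin libraries (log2 fold change -1.30, SE 0.072, edgeR adjusted p = 5.2e-08). BICC1 fell by 1.12 on the log2 scale (SE 0.091, edgeR adjusted p = 1.2e-06). On the adjusted p alone, 9 recruiters were higher, beside 23.2% of all genes, and 4 were lower, beside 23.7%.

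Of 19 genes for decapping and 5′ decay, 18 were tested and 0 were called by edgeR or DESeq2, with a median of -0.09. Among all genes edgeR called 6.24% higher and 9.34% lower, so nothing is read from 0 calls among 18 genes. At an unadjusted p with the same fold threshold, 1 was lower, LSM14A. LSM14A had 768 and 108 counts in control and 113 and 206 in Erastin libraries, so that control replicate 1 stood apart from the other 3. Its log2 fold change was -1.46 (SE 0.61, edgeR adjusted p = 0.070), and it was -2.28 without control replicate 2 and 0.57 without control replicate 1. LSM14A was called lower without control replicate 2 and without Erastin replicate 2, which gives 1 called gene in each. On the adjusted p alone, DCP1A (0.42) and DCP1B (0.43) were higher, and LSM3 (-0.30), LSM6 (-0.51) and EDC4 (-0.22) were lower.

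The list of p53 target genes, to which BTG2 also belongs by common knowledge but from which it was left out, was for the most part upregulated. Of 24 p53 targets, 21 were upregulated by edgeR, beside 6.24% of all genes, and 0 downregulated, beside 9.34%. DESeq2 gave the same 21 and 0, 0 were lower at an unadjusted p, and the median was 1.46. The list was chosen with earlier results of these data known. TP53I3, a redox enzyme, rose from 5.07 and 4.96 CPM in control to 47.3 and 45.4 CPM in Erastin libraries (log2 fold change 3.21, SE 0.12, edgeR adjusted p = 1.9e-09). GDF15, a stress cytokine, rose with a log2 fold change of 2.90 (SE 0.074). MDM2, the ubiquitin ligase of p53, rose with 2.43 (SE 0.067). CDKN1A, the p21 inhibitor of cyclin-dependent kinases, rose from 224.4 and 206.9 CPM in control to 1150 and 1171 CPM in Erastin libraries (2.43, SE 0.069, edgeR adjusted p = 4.0e-10). The log2 fold change of BTG2, 3.82, was above that of all 24. The family was selected with this value in view, so nothing is read from that rank. Of the targets that were not called, PLK2 (0.93) and DDB2 (0.80) passed the adjusted p alone, and CCNG1 (0.03) did not pass.

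BTG2 and TOB1 are known to restrain the G1 to S transition, and 15 of 17 listed G1 cyclins, kinases and inhibitors were tested. CDKN1A, which is also in the p53 list, was the 1 upregulated gene, beside 6.24% of all genes. Downregulated were 3, beside 9.34%, and the list median was -0.47. E2F1, the S-phase transcription factor, fell from 112.6 and 98.3 CPM in control to 34.7 and 33.7 CPM in Erastin libraries (log2 fold change -1.62, SE 0.087, edgeR adjusted p = 3.8e-08). CDK2 fell by 1.47 (SE 0.11) and RBL1, a pocket protein, fell by 1.17 (SE 0.094) on the log2 scale. On the adjusted p alone, 2 were higher and 8 lower, beside 23.2% and 23.7% of all genes. CDK4 (0.40) was the other higher gene. The others lower were CDK6 (-0.95), the inhibitors CDKN2D (-0.87) and CDKN1B (-0.82), CCND3 (-0.37) and RBL2 (-0.23). CCND1, the cyclin D1 gene that BTG2 and TOB1 are known to lower, was at 417.8 and 373.1 CPM in control and 451.1 and 439.6 CPM in Erastin libraries. Its log2 fold change was 0.17 (SE 0.070, edgeR adjusted p = 0.065), which did not pass.

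Of 14 known protein partners of BTG and TOB outside deadenylation, 13 were tested, with a median of 5.6e-05. By edgeR 0 were upregulated, beside 6.24% of all genes, and 1 was downregulated, beside 9.34%, which is near the background. SMAD3, a transducer of TGF-beta signals, fell from 164.5 and 164.1 CPM in control to 60.9 and 66.2 CPM in Erastin libraries (log2 fold change -1.37, SE 0.072, edgeR adjusted p = 3.4e-08). At an unadjusted p with the same fold threshold, 0 were higher and 1 was lower. The untested partner HOXB9, which binds BTG1 and BTG2, had 0 and 0 counts in control and 18 and 6 in Erastin libraries. HOXB9 entered the fit with DESeq2, and also without control replicate 1, without control replicate 2 and without Erastin replicate 2. It entered these through its Erastin counts alone, so it could only come out higher. DESeq2 called it higher, which gives 1, but nothing is read from its calls. PRMT1, the arginine methyltransferase bound by BTG1 and BTG2, was lower on the adjusted p alone (-0.25, SE 0.065, edgeR adjusted p = 0.0072). Altogether 5 partners were higher on the adjusted p alone, beside 23.2% of all genes, and 3 were lower, beside 23.7%.

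**Figure D5:**
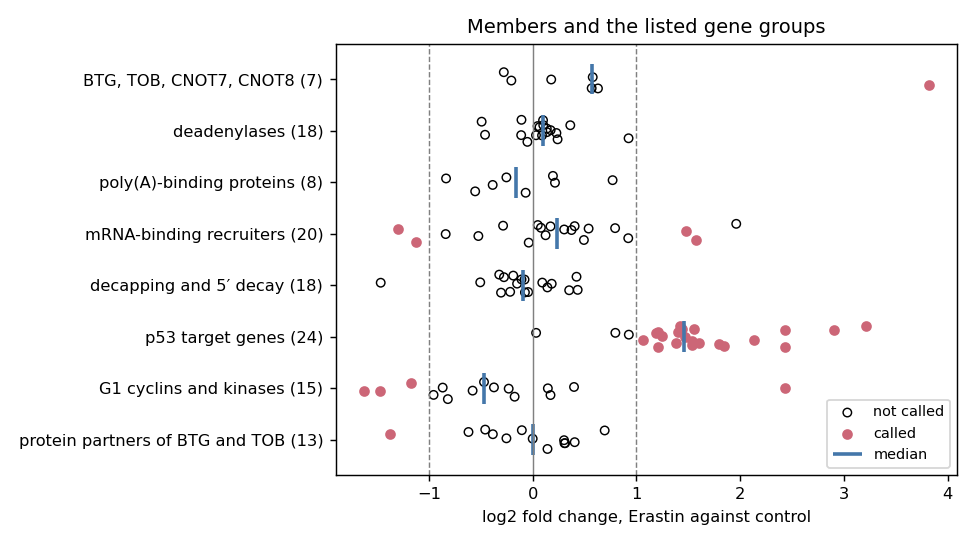
Log2 fold change of the 7 members and of the tested genes of each list, Erastin against control, with the number tested in parentheses. Filled red points were called, open points were not, blue bars are medians and dashed lines mark the fold threshold of 1. The p53 targets sit to the right with 21 of 24 called. BTG2 at 3.82, the value in view when the family was selected, is the farthest point to the right.

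The members differed in transcript structure, which the selection did not use. In the canonical transcripts (GENCODE release 44), BTG1, BTG2, TOB1 and TOB2 had 2 exons, BTG3 had 5 and CNOT7 and CNOT8 had 7. The 3′ untranslated regions ranged from 440 bases in BTG3 and 757 in TOB1 to 3802 in BTG1 and 5754 in CNOT7, beside a median of 1346 bases over 12801 tested genes. The AU-rich pentamer ATTTA, searched on the transcript strand, was present in 7 of 7 members and in 73.7% of those genes. It was densest in BTG3, at 6.82 per kilobase, and TOB1, at 5.28, beside a median of 1.77 over all genes. BTG2 had 0.924 per kilobase and BTG1 had 1.32. BTG2, the member with the largest fold change, held 2 pentamers in 2164 bases.

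Overlapping and related genes bear on the members' counts, which were not stranded. The exons of CNOT7 share 243 bases with VPS37A on the opposite strand, which had 1704 and 2131 counts in control and 2905 and 3528 in Erastin libraries. VPS37A counts were thus higher in both Erastin libraries where those of CNOT7 were lower. CNOT8 shares 163 bases with FAXDC2 on the opposite strand, which had 138 to 171 counts in the 4 libraries. BTG1 shares 503 bases with LINC01619 on the same strand, with at most 5 counts in a library, and 325 bases with BTG1-DT on the opposite strand, with at most 6. TOB1 shares 281 bases with TOB1-AS1 (7 to 12 counts), and BTG3 shares 280 bases with BTG3-AS1 (0 to 18 counts). BTG2-DT, a neighbour of BTG2, had 6 counts in 1 library and 0 in the others. Reads in the shared stretches were left out by the counting, so the counts of each member come from its other exon bases. The processed pseudogene TOB2P1 had 12 and 21 counts in control and 42 and 61 in Erastin libraries, and those of BTG1, BTG3 and CNOT7 had at most 1. Between members, 0 of 21 pairs of canonical transcripts shared a stretch of 31 identical bases.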

How the data were processed

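For the 4 RNA-seq libraries, a table of unnormalized read counts by gene was deposited by the authors. Per the file headers, featureCounts 2.0.3 counted both reads of a pair against Ensembl release 90 (GRCh38), unstranded, leaving out reads on more than 1 gene or place. The submitters' notes give featureCounts 2.0.4 and HISAT2 2.1.0, and the methods name htseq-count. A test for estimated counts found only whole numbers among the deposited values, and rounding changed 0 of them. ChIP-seq and HiChIP were not analysed here.

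In R 4.3.3, edgeR 4.0.16 (filterByExpr with a minimum count of 10, TMM, quasi-likelihood test, two-sided) compared the groups over 16751 genes, with Benjamini-Hochberg adjustment over all of them. On simulated data with known changes, the fit was tested before use. DESeq2 1.42.0, other scalings and filters, a replicate block and leaving out each library were the alternatives. The smallest two-sided p of an exact permutation test on 2 against 2 libraries is 0.333, and p-values measure only the spread between these libraries. Replicates differed beyond sampling noise (chi-square per degree of freedom 11.1 and 9.10). Reads without molecular identifiers give counting error only.

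The members, lists and motifs were chosen with earlier results of these data known. Named genes were the members and BTG4, in each list the called genes (at most 4 by size) and the CCR4-NOT subunits, overlapping or same-named genes, and the 5 nearest to BTG2. Other listed genes were named after their values were seen. Promoters came from RefSeq (GRCh38.p14) and transcripts from GENCODE release 44. The promoter of CNOT7 is not reported here.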

Additional observations from a re-analysis of the deposited data

How the results depend on the processing

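Leaving out 1 library gave log2 fold changes of 3.75 to 3.88 for BTG2, 0.57 to 0.68 for BTG1, 0.53 to 0.61 for TOB1, 0.46 to 0.68 for TOB2, -0.34 to -0.23 for BTG3, -0.25 to -0.18 for CNOT7 and 0.07 to 0.28 for CNOT8. The lone library left in a group was then assumed to vary like the other group. The sign of all 7 members was the same under every alternative run. Scaling per length to equal library sums (TPM), chosen after seeing the data, moved the median of all genes by 0.19 (log2), and relative to it BTG2 was at 3.83 and BTG3 at -0.27.

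On the adjusted p alone, counts up and down were 3892 and 3977 for all genes, or 23.2% and 23.7% of those tested. They were 4 and 2 for members, 2 and 2 for the deadenylase list, 2 and 2 for poly(A)-binding proteins and 9 and 4 for recruiters. Those for decapping and 5′ decay were 2 and 3, for G1 genes 2 and 8 and for partners 5 and 3. DESeq2 called 1 recruiter and 1 partner (HOXB9) higher. Without the filter on low counts, 1 decay gene (LSM14A) was lower and 1 partner (HOXB9) higher. HOXB9 had 0 counts in both control libraries, so nothing is read from its calls under any setting. Leaving out 1 library gave 1 to 3 recruiters higher, 0 to 1 decay genes lower and 0 to 1 partners higher.

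Not divided by length, the family shares in control and Erastin were 18.3% and 20.1% for BTG1, 1.35% and 13.5% for BTG2, 39.0% and 22.8% for BTG3, 14.1% and 14.9% for TOB1, and 27.3% and 28.7% for TOB2. In Erastin libraries BTG2 was then below BTG1, BTG3 below TOB2 and TOB1 below BTG1, each the reverse of the order per length. In control libraries TOB1 was likewise below BTG1. The setting leaves long transcripts with a larger share by construction.

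The labels number the replicates without saying what a number marks, and same-numbered libraries did not deviate together (correlation 0.0203 over 2 pairs). With the replicate block, BTG2 was at 3.82, TOB2 at 0.57 and CNOT7 at -0.21 (log2), 1 member was called higher and 0 lower. The calls of BTG3 and CNOT7 on the adjusted p alone were lost under the settings named with them in the report, while their log2 fold changes kept their sign.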
